A study of Mus musculus with 14 samples.

Results

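The genes described here are 40 members of the Toll-like receptor (TLR) adaptor and NF-kB pathway, taken by gene symbol from a list that was drawn up with earlier results of these data known. All 40 were found among the 17890 genes of the table, and all 40 had enough counts to be tested. They were measured by RNA sequencing of polyadenylated RNA in 4 libraries named D and 4 named M. The D libraries come from male C57BL/6J mice, an inbred strain, 8 weeks old at the start, that were given streptozotocin, which kills the beta cells of the pancreas. The daily dose was 42 to 45 mg/kg over 5 days. Mice with a blood glucose above 16.9 mmol/L were taken as diabetic, and marrow was collected after 6 weeks of hyperglycaemia. The M libraries come from mice of the same strain, sex and age that were allocated as healthy controls. Marrow progenitors of both groups grew for 7 days with recombinant M-CSF, the macrophage growth factor, in medium with 5 mmol/L glucose. No stimulus of a Toll-like receptor is named in the labels. The letter D was taken to stand for diabetic, and M, which the labels leave unexplained, for the healthy group that remained. Directions are given as D relative to M, and swapped letters would reverse them. Whether the libraries of a group came from separate animals is not stated, so the p-values reflect variation among these samples, and it may be technical. A further 6 samples of a second phase were not analysed here.

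Toll-like receptors bind microbial molecules outside the cell or in endosomes and pass the signal through adaptors with a TIR domain. MyD88 gathers the IRAK kinases, which engage the ligase TRAF6, the kinase TAK1 and then the IKK complex. IKK marks the inhibitory IkB proteins for destruction, and dimers of NF-kB subunits enter the nucleus. Among the genes they switch on are IkB proteins and the A20 complex, which close the loop. Macrophages, monocytes and neutrophils use this pathway to detect bacteria, and B cells use many of the same parts downstream of their own receptors.

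The 8 libraries held 19048195 to 20027967 estimated counts. The labelled cell type, macrophages grown from marrow, was set beside marker lists. Each of 10 macrophage markers was above 0 in at least 1 library. The same held for every marker of the other cell types, so presence alone could not check the label. On the length-scaled TPM values the macrophage surface protein gene Adgre1 averaged 49.2 ± 11.3 TPM in the D libraries and 28.3 ± 4.41 TPM in the M libraries and the complement gene C1qa 3.48 ± 0.670 TPM in the D libraries and 1.34 ± 0.468 TPM in the M libraries, while the neutrophil gene S100a9 averaged 69253 ± 11492 TPM in the D libraries and 61080 ± 2348 TPM in the M libraries. The 15 markers of neutrophils and their precursors summed to 44172 to 68639 CPM (counts scaled to library size) in the D libraries and 38422 to 40162 CPM in the M libraries, and 10 of 15 were higher in D and 0 lower. The 5 not called were Mpo, Elane, Prtn3, Ctsg and S100a9, with log2 fold changes of -0.05 to 0.28. S100a8 and S100a9 made up most of the neutrophil sums. For macrophage markers the sums were 6999 to 11427 CPM in D and 4620 to 5424 CPM in M, mostly lysozyme (Lyz2, 8145 ± 1911 CPM in the D libraries and 4606 ± 303 CPM in the M libraries), with 8 of 10 higher and 0 lower. The sums therefore reflect Lyz2 and say little of the other macrophage markers. Cd68 and Mertk were not called, and Mertk was scarce, at 0.30 ± 0.09 TPM in the D libraries and 0.455 ± 0.146 TPM in the M libraries. The 12 B-cell markers summed to 77.5 to 264 CPM in D and 1202 to 1566 CPM in M, and 10 of 12 were lower. Vpreb1 and Igll1 were not called. Of the tested markers of T or NK cells 5 of 8 were higher and 0 lower, of basophils or mast cells 7 of 8 and 0, and of plasma cells 1 of 6 was higher and 3 were lower. No marker was at 0 in every library. In such mixed cultures, fewer cells of a type and less RNA per cell cannot be told apart, and the part of these cell types in the results on the pathway was not tested.

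Of the 40 members, 15 were higher in D and 3 were lower by edgeR's quasi-likelihood test at a Benjamini-Hochberg adjusted p under 0.05, and 22 were not called. That is 45.0% of the members, beside 34.7% of the 12839 genes tested. In the upward direction 17.4% of all genes were called, and in the downward direction 17.3%. The highest fold change among the members was that of the bacterial sensor Nod2, and the lowest that of Nfkbie, which encodes IkB epsilon. Most shifts were small. The median log2 fold change was 0.20 over the members and -0.03 over all genes tested, and the median absolute change of the called members was 0.39, against 0.48 for all called genes. Only Nod2 and Nfkbie changed by 2-fold or more. Every D library lay above every M library in 10 of 40 members (16.3% of all genes did so) and below in 6 of 40 (18.4% of all genes). The balance of directions depended on scaling: with library totals in place of TMM factors 9 members were higher and 9 lower, while over all genes 31.3% of the calls were higher, against 50.1% with TMM, and the median of all genes moved to -0.14.

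**Figure D1:**
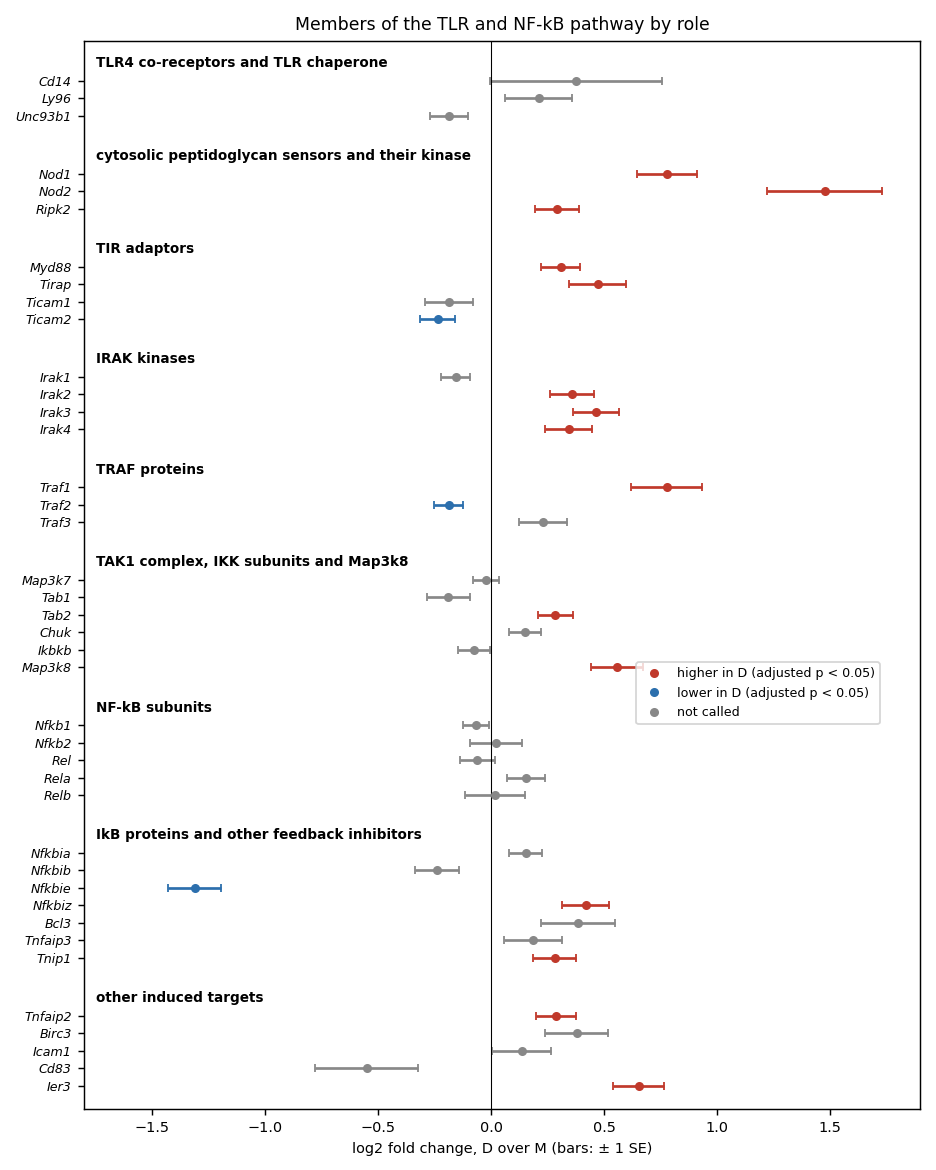
Log2 fold change of each member, D over M, with bars of 1 SE, grouped by role. Red points were called higher in D and blue points lower at an adjusted p under 0.05. The 3 genes of cytosolic peptidoglycan sensing lie to the right of 0, the 5 NF-kB subunits lie near it, and Nfkbie lies alone at -1.31.

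The cytosolic sensors of peptidoglycan and their shared kinase were all higher in D, 3 of 3, beside 17.4% of all genes tested. Nod2 (NCBI gene 257632, chromosome 8, 88647315 to 88688474, plus strand) recognises muramyl dipeptide of bacterial cell walls and stood at 5.53, 10.7, 13.2 and 10.8 CPM in D replicates 1 to 4, against 3.13, 3.498, 4.81 and 3.01 CPM in M replicates 1 to 4. D replicate 1 was the lowest of its group, and the groups did not overlap. The log2 fold change was 1.48 ± 0.26 (adjusted p = 0.00198), or 2.78-fold. Nod1 (NCBI gene 107607, chromosome 6, 54923942 to 54972674, minus strand), which recognises a peptide of mostly Gram-negative walls, was at 16.7, 22.4, 25.8 and 18.8 CPM in D replicates 1 to 4, against 13.1, 11.1, 12.4 and 11.99 CPM in M replicates 1 to 4. Here too every D library was above every M library, with a log2 fold change of 0.78 ± 0.13 (adjusted p = 0.00171). The kinase Ripk2, which both sensors recruit, was at 12.98, 12.97, 14.4 and 12.04 CPM in D replicates 1 to 4, against 10.2, 10.04, 10.7 and 11.8 CPM in M replicates 1 to 4, narrowly without overlap. Its log2 fold change was 0.29 ± 0.10 (adjusted p = 0.0395). The call ended with the replicate number as a block (adjusted p = 0.0623) and without any 1 of D replicates 2 and 3 and M replicates 1, 2 and 3 (adjusted p = 0.0656 to 0.0989). Unfiltered genes gave an adjusted p of 0.0587, and library totals or TPM one of 0.112 to 0.167. The level of Nod2 was low, 60 to 240 counts a library, and its counts were split over 4 transcript models; the most abundant model alone gave 0.99 ± 1.65. The summed neutrophil markers, also with no overlap between groups, were lowest in D replicate 1 at 44172 CPM and highest in D replicate 3 at 68639 CPM, as Nod1 and Nod2 were within D. S100a8 and S100a9 made up most of that sum, while Mpo, Elane, Prtn3 and Ctsg were highest in D replicate 1 within D. The part of the neutrophil markers in these differences was not tested.

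None of the 3 proteins that serve Toll-like receptors at the membrane was called, beside 34.7% of all genes tested. Cd14, which hands lipopolysaccharide to the TLR4 complex, varied widely, at 11.5, 28.7, 29.2 and 11.9 CPM in D replicates 1 to 4, against 21.2, 18.8, 12.02 and 10.5 CPM in M replicates 1 to 4. D replicates 2 and 3 were the highest of the 8 libraries, while D replicates 1 and 4 lay within the M range, and the log2 fold change was 0.38 ± 0.38 (adjusted p = 0.473). Ly96 (MD-2), the part of the TLR4 complex that binds lipopolysaccharide, averaged 9.31 ± 1.07 CPM in the D libraries and 8.05 ± 1.55 CPM in the M libraries (adjusted p = 0.297). Unc93b1, which escorts the nucleic acid sensing receptors to endosomes, averaged 337 ± 34.9 CPM in the D libraries and 384 ± 20.2 CPM in the M libraries, with a log2 fold change of -0.19 ± 0.09 (adjusted p = 0.113). With library totals alone Unc93b1 would be called lower (-0.29, adjusted p = 0.0231), and likewise with the deposited TPM (adjusted p = 0.0248 to 0.0250).

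The 4 TIR adaptors went in both directions. Myd88, used by nearly all Toll-like receptors and by interleukin 1 receptors, stood at 92.7, 109, 120.1 and 111 CPM in D replicates 1 to 4, against 82.9, 89.7, 94.3 and 82.6 CPM in M replicates 1 to 4. D replicate 1 lay inside the M range and the other 3 D libraries above it, with a log2 fold change of 0.31 ± 0.09 (adjusted p = 0.0183). Tirap, the bridge between MyD88 and the receptors TLR2 and TLR4, was at 65.96, 86.3, 104 and 93.9 CPM in D replicates 1 to 4, against 58.4, 67.8, 68.1 and 58.6 CPM in M replicates 1 to 4. Again only D replicate 1 overlapped the M libraries, and the log2 fold change was 0.47 ± 0.13 (adjusted p = 0.0156). Neither Ticam1 nor Ticam2, the adaptors of the other arm through TRIF to type I interferon, was higher in D. This says nothing of the later steps of that arm. Ticam2 (TRAM), which brings TRIF to TLR4, was at 20.3, 19.4, 19.3 and 18.3 CPM in D replicates 1 to 4, against 23.1, 24.6, 22.2 and 21.1 CPM in M replicates 1 to 4. All D libraries lay below all M libraries, but the difference was small, -0.24 ± 0.08 (adjusted p = 0.0393). Ticam1 (TRIF) averaged 21.98 ± 3.26 CPM in the D libraries and 24.99 ± 0.989 CPM in the M libraries (adjusted p = 0.201). Without M replicate 1 or 4 the call of Myd88 ended (adjusted p = 0.0520 to 0.0571), as it did with library totals or TPM (adjusted p = 0.0536 to 0.0641), and that of Ticam2 ended without any of 6 libraries, D replicates 2, 3 and 4 and M replicates 1, 2 and 3 (adjusted p = 0.0674 to 0.139). It ended too with DESeq2's size factors or test and with no filter (adjusted p = 0.0556 to 0.0641). Exons of Myd88, Tirap and Ticam2 overlap those of Acaa1a, Srpr and Tmed7 over 11.3%, 9.84% and 14.5% of their length, and no source used here says whether counting used strand, so some reads may belong to those neighbours.

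Among the IRAK kinases 3 of 4 were higher in D, beside 17.4% of all genes tested. Irak3, also called IRAK-M, restrains the pathway and has no effective kinase activity. It stood at 65.4, 82.4, 96.9 and 78.3 CPM in D replicates 1 to 4, against 58.7, 60.2, 58.05 and 57.3 CPM in M replicates 1 to 4. Every D library was above every M library. The log2 fold change was 0.46 ± 0.10 (adjusted p = 0.00641). Irak2, which sustains signalling after the first wave, was at 69.3, 84.8, 94.6 and 72.3 CPM in D replicates 1 to 4, against 64.5, 64.3, 62.1 and 59.5 CPM in M replicates 1 to 4, without overlap, and its log2 fold change was 0.36 ± 0.10 (adjusted p = 0.0159). Irak4, the first kinase of the cascade, was at 57.8, 72.1, 84.2 and 69.5 CPM in D replicates 1 to 4, against 57.5, 51.2, 59.8 and 55.00 CPM in M replicates 1 to 4. Its groups overlapped at D replicate 1, and the log2 fold change was 0.34 ± 0.10 (adjusted p = 0.0271). That call ended without any 1 of D replicate 2 and M replicates 1, 2 and 4 (adjusted p = 0.0530 to 0.0803) and with library totals or TPM (adjusted p = 0.0596 to 0.0626). Irak1, on the X chromosome, went the other way without being called: it was at 123, 121, 125 and 123 CPM in D replicates 1 to 4, against 152, 134, 129 and 133 CPM in M replicates 1 to 4. Every D library was below every M library, at -0.16 ± 0.07 (adjusted p = 0.0877), and with library totals it would be called lower (-0.26, adjusted p = 0.0105; with TPM, adjusted p = 0.0129). On the length-scaled TPM values Irak1 made up 25.1% to 32.4% of the IRAK transcripts in D libraries and 35.1% to 38.7% in M libraries, while Irak3 made up 22.2% to 25.4% in D and 19.3% to 21.6% in M. These shares were chosen after the values were seen and carry no test. Exons of Irak3 and Irak4 overlap those of Tmbim4 and Twf1 over 5.99% and 7.87% of their length.

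The TRAF proteins, scaffolds and ubiquitin ligases below TNF-family receptors, divided too. Traf1 (NCBI gene 22029, chromosome 2, 34941750 to 34961812, minus strand), itself an NF-kB target and the one TRAF without a RING ligase domain, was at 10.9, 13.8, 8.77 and 11.9 CPM in D replicates 1 to 4, against 5.96, 8.14, 6.16 and 6.22 CPM in M replicates 1 to 4. The groups did not overlap, although the highest M library, replicate 2, came within 1 CPM of the lowest D library, replicate 3. The log2 fold change was 0.78 ± 0.16 (adjusted p = 0.00405). Within D, Traf1 was lowest in replicate 3, the library with the highest neutrophil marker sum. Traf2 was at 31.2, 31.2, 31.4 and 31.2 CPM in D replicates 1 to 4, against 38.2, 35.4, 35.01 and 33.7 CPM in M replicates 1 to 4. The D libraries differed little from each other and all lay below the M libraries, with a log2 fold change of -0.19 ± 0.07 (adjusted p = 0.0463). The call of Traf2 ended without any 1 of the 8 libraries (adjusted p = 0.0581 to 0.141), with DESeq2's size factors or test or no filter (adjusted p = 0.0734 to 0.0864) and with the replicate block (adjusted p = 0.0594). Traf3, which holds back the alternative pathway, averaged 87.7 ± 13.5 CPM in the D libraries and 74.7 ± 4.18 CPM in the M libraries (adjusted p = 0.112), and would be called higher without D replicate 1 (0.36, adjusted p = 0.00245).

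In the kinase tier, 2 of 6 members were higher and 0 lower, or 33.3% called, beside 34.7% of all genes tested. Map3k8 (Tpl2; NCBI gene 26410, chromosome 18, 4331325 to 4352953, minus strand), a kinase held by the NF-kB precursor p105 that leads to ERK, was at 19.2, 27.01, 28.1 and 23.7 CPM in D replicates 1 to 4, against 16.2, 16.8, 17.5 and 16.2 CPM in M replicates 1 to 4. The groups did not overlap and the log2 fold change was 0.56 ± 0.12 (adjusted p = 0.00469). Tab2, an ubiquitin-binding partner of TAK1, was at 209, 227, 261 and 229 CPM in D replicates 1 to 4, against 180.3, 199, 189 and 191 CPM in M replicates 1 to 4, without overlap. Its log2 fold change was 0.28 ± 0.08 (adjusted p = 0.0166), and with library totals or TPM the adjusted p was 0.0515 to 0.0533. TAK1 itself (Map3k7) differed by -0.02 ± 0.06 (adjusted p = 0.791), with 83.01 ± 2.59 CPM in the D libraries and 84.3 ± 2.80 CPM in the M libraries, and its sign turned with DESeq2's size factors. Chuk (IKK alpha), Ikbkb (IKK beta) and Tab1, a further TAK1 partner, had log2 fold changes of 0.15 ± 0.07, -0.07 ± 0.07 and -0.19 ± 0.10, and none was called (adjusted p = 0.115, 0.435 and 0.146). With library totals Ikbkb and Tab1 would be called lower (adjusted p = 0.0450 and 0.0292).

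None of the 5 NF-kB subunit genes was called in either direction, beside 34.7% of all genes tested. Rela (p65), the main activating subunit, was at 98.8, 111, 103 and 106 CPM in D replicates 1 to 4, against 109, 85.5, 93.6 and 87.4 CPM in M replicates 1 to 4. M replicate 1 lay among the D libraries, and the log2 fold change was 0.16 ± 0.08 (adjusted p = 0.169). Without M replicate 1 it would be called higher (0.24, adjusted p = 0.0334). Nfkb1, the source of p50, averaged 169.7 ± 5.75 CPM in the D libraries and 178 ± 2.37 CPM in the M libraries. Its D libraries were all below its M libraries, by a small margin (-0.07 ± 0.06, adjusted p = 0.389; with library totals -0.17, adjusted p = 0.0279). Rel, a subunit prominent in lymphocytes, averaged 107 ± 10.4 CPM in the D libraries and 112 ± 5.51 CPM in the M libraries (adjusted p = 0.578). Nfkb2 and Relb, which form the dimer of the alternative pathway, had log2 fold changes of 0.02 ± 0.12 and 0.02 ± 0.13 (adjusted p = 0.893 and 0.924), and both turned sign with library totals and TPM. On the TPM scale the share of each subunit among the 5 overlapped between groups, with Rela at 30.3% to 32.2% in D and 26.7% to 30.9% in M. Exons of Nfkb2 overlap those of Psd and a non-coding gene over 18.1% of their length.

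**Figure D2:**
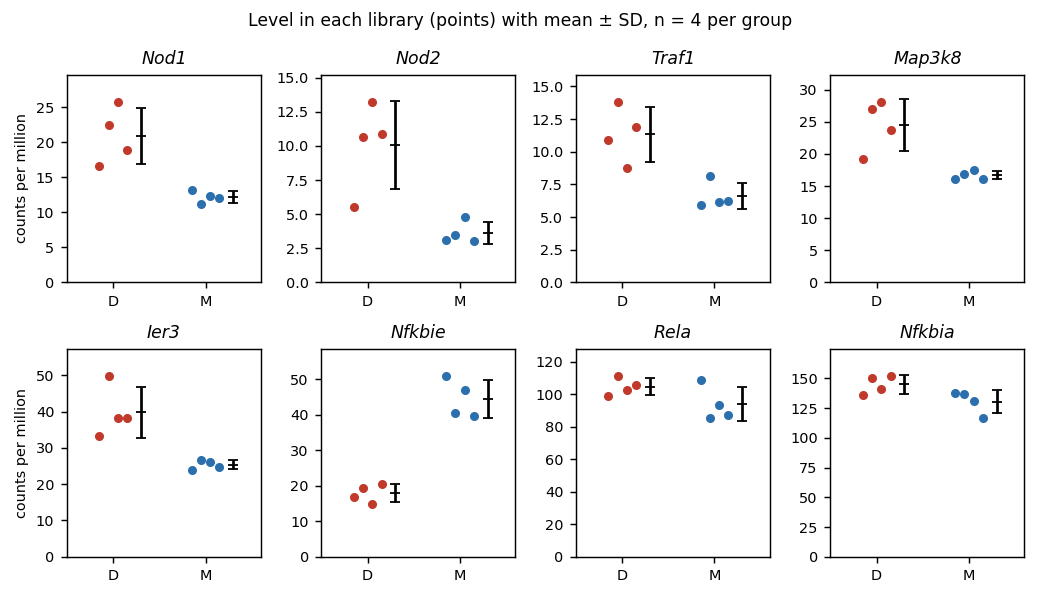
CPM of 8 members in each library, D on the left and M on the right, with the mean and SD of 4 libraries beside the points. The first 5 panels show genes higher in D and Nfkbie shows the reverse, with 14.9 to 20.5 CPM in D and 39.5 to 50.9 CPM in M, while the groups overlap for Rela and Nfkbia.

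The inhibitors did not move as one group: 2 of 7 were higher, 1 was lower and 4 were not called. That is 42.9% called, beside 34.7% of all genes tested. The lower one, Nfkbie (NCBI gene 18037, chromosome 17, 45555700 to 45563169, plus strand), encodes IkB epsilon, an inhibitor that retains Rel and RelA dimers in the cytoplasm and that is induced by NF-kB. It was at 16.8, 19.3, 14.9 and 20.5 CPM in D replicates 1 to 4, against 50.9, 40.4, 46.9 and 39.5 CPM in M replicates 1 to 4. The groups were far apart, with the highest D library at 20.5 CPM and the lowest M library at 39.5 CPM. The log2 fold change was -1.31 ± 0.12 (adjusted p = 4.79e-05), 2.48-fold lower in D, and it stayed below an adjusted p of 0.05 in all 18 alternatives, at -1.41 to -1.14. The B-cell markers moved in the same direction in the same libraries (10 of 12 lower, sums of 77.5 to 264 CPM in D and 1202 to 1566 CPM in M), and the lowest value of both was in D replicate 3. So did the dendritic cell markers (6 of 8 lower, 0 higher, sums of 63.9 to 175 CPM in D and 240 to 283 CPM in M), also lowest in D replicate 3. The part of these cell types in the change of Nfkbie was not tested. Nfkbia (IkB alpha), the classical and fastest inhibitor, was at 136, 150.4, 141 and 152 CPM in D replicates 1 to 4, against 137, 137, 131 and 117 CPM in M replicates 1 to 4. D replicate 1 lay among the M libraries, and the log2 fold change was 0.15 ± 0.07 (adjusted p = 0.126; 0.21 and adjusted p = 0.0468 without D replicate 1). Nfkbib (IkB beta) averaged 20.2 ± 1.68 CPM in the D libraries and 23.9 ± 2.62 CPM in the M libraries (adjusted p = 0.0816), and the replicate block gave an adjusted p of 0.0487. With library totals or TPM it would also be called lower (-0.34 with totals, -0.32 and -0.33 with TPM, adjusted p = 0.0284 to 0.0299). Its exons overlap those of Sirt2 and Ccer2 over 16.4% of their length. Of the summed TPM of these 3 classical IkB genes, Nfkbie took 5.55% to 7.06% in D libraries and 13.7% to 16.2% in M libraries, while Nfkbia took 79.6% to 81.8% in D and 68.2% to 72.3% in M. These shares depend on each other, so a lower share of Nfkbie raises that of Nfkbia, which was itself not called. They carry no test.

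Of the nuclear IkB proteins, Nfkbiz (IkB zeta), which acts as a coactivator of secondary response genes, was at 48.4, 59.1, 59.8 and 63.05 CPM in D replicates 1 to 4, against 38.01, 43.1, 49.8 and 41.5 CPM in M replicates 1 to 4. D replicate 1 overlapped the highest M library, and the log2 fold change was 0.42 ± 0.10 (adjusted p = 0.0101). Bcl3, which binds p50 and p52 homodimers, was uneven within D, at 22.99, 37.3, 23.3 and 36.3 CPM in D replicates 1 to 4, against 22.6, 24.4, 23.9 and 20.9 CPM in M replicates 1 to 4. D replicates 2 and 4 were above every M library and D replicates 1 and 3 within their range, with a log2 fold change of 0.39 ± 0.16 (adjusted p = 0.0898). It would be called without D replicate 1 (0.52, adjusted p = 0.0172) or D replicate 3 (0.50, adjusted p = 0.0379). Tnfaip3 (A20), the ubiquitin-editing brake of the pathway, was at 51.3, 75.2, 59.8 and 56.1 CPM in D replicates 1 to 4, against 61.1, 56.8, 50.99 and 44.5 CPM in M replicates 1 to 4. The groups overlapped, at 0.18 ± 0.13 (adjusted p = 0.287). Tnip1 (ABIN-1), its ubiquitin-binding partner, was at 62.7, 76.5, 72.3 and 74.2 CPM in D replicates 1 to 4, against 68.9, 58.1, 56.5 and 51.6 CPM in M replicates 1 to 4. Here M replicate 1 lay among the D libraries, and the log2 fold change was 0.28 ± 0.10 (adjusted p = 0.0435). That call ended with the replicate block (adjusted p = 0.0687) and without any 1 of replicates 2, 3 and 4 of either group (adjusted p = 0.0603 to 0.123), and with library totals or TPM (adjusted p = 0.112 to 0.152).

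Promoters of several inhibitor and target genes are known to bind NF-kB. Those of 7 members are shown so that called members with a match (Nfkbie, Tnip1, Ier3, Tnfaip2) stand beside members not called (Nfkbia, Tnfaip3, Rel), which were picked after their values were seen. Each line gives the 125 bases before a transcript start in RefSeq (build GRCm38.p6), 5′ to 3′ on the strand of the gene, with capitals where the 10-letter kB decamer consensus matched on either strand. Overlapping matches run together. For Tnfaip2 the start used lies inside the gene as RefSeq places it, so its window is within the gene, and the window of Tnip1 runs partly into its gene.
Nfkbie: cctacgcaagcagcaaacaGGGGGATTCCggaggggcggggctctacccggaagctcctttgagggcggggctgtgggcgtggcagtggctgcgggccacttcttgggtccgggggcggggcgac
Tnip1: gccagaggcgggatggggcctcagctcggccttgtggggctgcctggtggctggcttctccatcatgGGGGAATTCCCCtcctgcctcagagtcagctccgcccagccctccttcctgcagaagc
Ier3: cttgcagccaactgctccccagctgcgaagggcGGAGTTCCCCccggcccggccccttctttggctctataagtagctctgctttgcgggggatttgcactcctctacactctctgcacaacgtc
Tnfaip2: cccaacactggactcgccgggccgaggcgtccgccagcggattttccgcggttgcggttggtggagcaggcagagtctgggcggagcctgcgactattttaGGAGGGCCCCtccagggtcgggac
Nfkbia: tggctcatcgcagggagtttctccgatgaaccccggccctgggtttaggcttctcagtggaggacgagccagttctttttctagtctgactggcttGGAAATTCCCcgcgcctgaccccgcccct
Tnfaip3: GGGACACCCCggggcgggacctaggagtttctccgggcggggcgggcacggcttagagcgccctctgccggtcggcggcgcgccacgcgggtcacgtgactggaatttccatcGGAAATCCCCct
Rel: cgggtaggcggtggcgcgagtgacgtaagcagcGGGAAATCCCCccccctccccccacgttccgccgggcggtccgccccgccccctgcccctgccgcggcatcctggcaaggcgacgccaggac
The windows lie at chr17:45555575-45555699, plus strand, for Nfkbie, at chr11:54962941-54963065, minus strand, for Tnip1, at chr17:35821588-35821712, plus strand, for Ier3, and at chr12:111442536-111442660, plus strand, for Tnfaip2. Those of Nfkbia, Tnfaip3 and Rel lie at chr12:55492648-55492772, minus strand, at chr10:19015411-19015535, minus strand, and at chr11:23770970-23771094, minus strand. The match begins 106 bases before the start in Nfkbie, 92 in Ier3, 58 in Tnip1, 29 in Nfkbia and 24 in Tnfaip2. Tnfaip3 holds one at 125 and one at 12 bases before the start, and in Rel 2 overlapping matches begin at 92 and 91 bases. RefSeq promoters were given for 28 of the 40 members, and 11 of them (39.3%) held a match within 250 bases before a start, beside 8.23% of 27025 genes. The member list includes known NF-kB targets, so a share above that of all genes may have been built in. Among the 28, 4 of 14 called and 7 of 14 not called members held one. Those not called and not shown were Irak1, Map3k7, Nfkb2 and Traf3. A match is a run of letters, not a measured binding site.

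Of the other induced targets, 2 of 5 were higher and 0 lower, or 40% called, beside 34.7% of all genes tested. Ier3 (NCBI gene 15937, chromosome 17, 35821713 to 35822911, plus strand), an immediate early gene that affects survival under stress, was at 33.3, 49.8, 38.3 and 38.1 CPM in D replicates 1 to 4, against 23.8, 26.7, 26.1 and 24.8 CPM in M replicates 1 to 4. D replicate 2 was the highest, and the groups did not overlap, with a log2 fold change of 0.65 ± 0.11 (adjusted p = 0.00198). Tnfaip2, a TNF-induced gene and one of the more abundant members, was at 343, 376, 459.7 and 387 CPM in D replicates 1 to 4, against 312, 334, 319 and 317 CPM in M replicates 1 to 4, without overlap. Its log2 fold change was only 0.29 ± 0.09 (adjusted p = 0.0289), and the call ended without D replicate 4 or any 1 M library (adjusted p = 0.0513 to 0.0728) and with library totals or TPM (adjusted p = 0.0735 to 0.0739). Birc3 (cIAP2), a ligase that protects from TNF-induced death, was at 92.02, 154, 137 and 133 CPM in D replicates 1 to 4, against 94.01, 101, 113 and 89.8 CPM in M replicates 1 to 4. D replicate 1 was the lowest but for 1 M library and the other 3 D libraries were above the M range, at 0.38 ± 0.14 (adjusted p = 0.0598). The replicate block gave an adjusted p of 0.0344, DESeq2 one of 0.0250, and leaving out D replicate 1 a log2 fold change of 0.54 (adjusted p = 0.000890). Icam1, an adhesion molecule for leukocyte integrins, averaged 31.2 ± 5.71 CPM in the D libraries and 28.4 ± 2.72 CPM in the M libraries (adjusted p = 0.444). Cd83, a surface protein of mature dendritic cells and activated B cells, was at 7.95, 9.91, 4.25 and 10.3 CPM in D replicates 1 to 4, against 12.2, 13.6, 10.7 and 11.04 CPM in M replicates 1 to 4. Every D library was below every M library, with D replicate 3 the lowest, but the log2 fold change of -0.55 ± 0.23 was not called (adjusted p = 0.0839; with the replicate block -0.60, adjusted p = 0.0362; with TPM, adjusted p = 0.0496 at a pseudocount of 1). The 8 dendritic cell markers (6 lower, 0 higher; sums of 63.9 to 175 CPM in D and 240 to 283 CPM in M) and the B-cell markers were lowest in D replicate 3 as well, and their part was not tested.

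Levels can be compared between genes on the TPM scale, which allows for transcript length. Unc93b1 was the most abundant member, with 273 ± 29.4 TPM in the D libraries and 333 ± 15.4 TPM in the M libraries (SD, n = 4 each). Next came Tnfaip2 with 201 ± 17.8 TPM in the D libraries and 176 ± 7.86 TPM in the M libraries and Nfkbia with 169.6 ± 11.3 TPM in the D libraries and 162 ± 10.7 TPM in the M libraries. Myd88 averaged 102 ± 7.97 TPM in the D libraries and 88.3 ± 7.08 TPM in the M libraries, while other adaptors were scarcer: Tirap averaged 33.5 ± 5.23 TPM in the D libraries and 25.9 ± 2.59 TPM in the M libraries and Ticam2 10.8 ± 0.727 TPM in the D libraries and 13.5 ± 0.841 TPM in the M libraries. At the low end were Nod2, with 4.11 ± 1.34 TPM in the D libraries and 1.51 ± 0.364 TPM in the M libraries, and Traf1, with 8.80 ± 1.74 TPM in the D libraries and 5.42 ± 0.923 TPM in the M libraries. Many neighbours in the order lay within the spread of each other, as Nfkb1 (79.5 ± 2.61 TPM in the D libraries and 88.5 ± 2.78 TPM in the M libraries) and Birc3 (79.95 ± 16.3 TPM in the D libraries and 65.3 ± 7.89 TPM in the M libraries) did in D. Nfkbie averaged 13.5 ± 2.16 TPM in the D libraries and 35.5 ± 3.92 TPM in the M libraries. Its mean stood near that of Ticam1 (14.2 ± 2.13 TPM in the D libraries and 17.1 ± 0.646 TPM in the M libraries) in D and near that of Nfkbib (26.97 ± 3.18 TPM in the D libraries and 33.7 ± 3.01 TPM in the M libraries) in M.

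**Figure D3:**
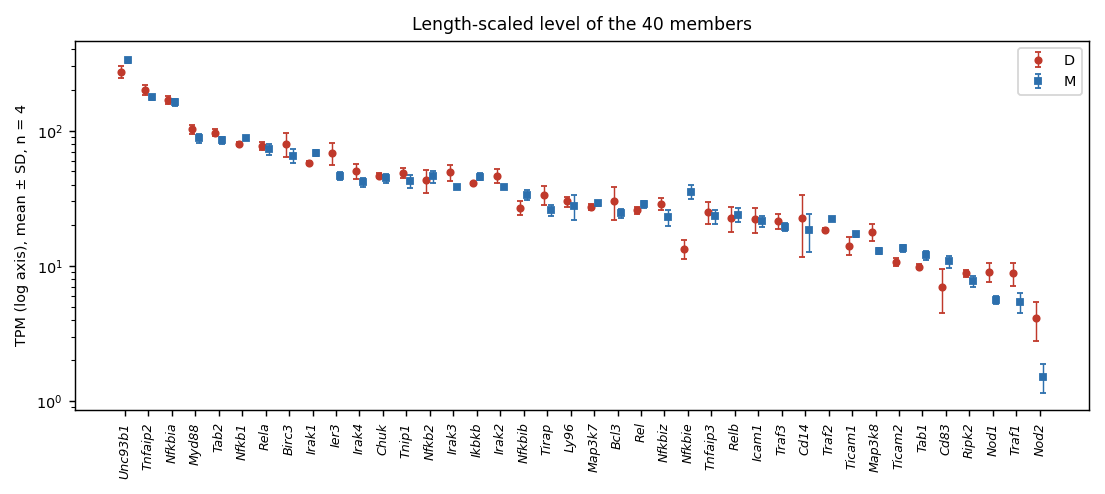
Mean TPM with SD over 4 libraries for the 40 members, D as circles and M as squares, on a log axis and ordered by the mean of all libraries. Levels run from Unc93b1, at 273 in D and 333 in M, to Nod2, at 4.11 in D and 1.51 in M.

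The D libraries differed among themselves in a regular way. Of the 15 members higher in D, 13 were lowest in D replicate 1 and 11 were highest in D replicate 3, within the D group. This ordering was not particular to the pathway: of the 2233 genes called higher, 66.2% were lowest in D replicate 1 and 69.3% highest in D replicate 3. The exceptions at the top were Traf1, Ier3 and Tnip1, highest in D replicate 2, and Nfkbiz, highest in D replicate 4. At the bottom they were Traf1, lowest in D replicate 3, and Ripk2, lowest in D replicate 4. The neutrophil marker sum was also lowest in D replicate 1 and highest in D replicate 3, and its part in this order was not tested. That sum was mostly S100a8 and S100a9 (15255 and 23213 CPM in D replicate 3). Mpo, Elane, Prtn3 and Ctsg of the same list were instead highest in D replicate 1 within D (1318, 528, 253 and 261 CPM). On the first principal component of all genes, with 64.7% of the variance, D replicate 1 was at -16.0 and D replicate 3 at -54.5, with the M libraries between 27.9 and 37.6. Without both D replicates 1 and 3, 19 members were higher and 2 lower, and 15 of the 18 reported calls were among these 21.

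**Figure D4:**
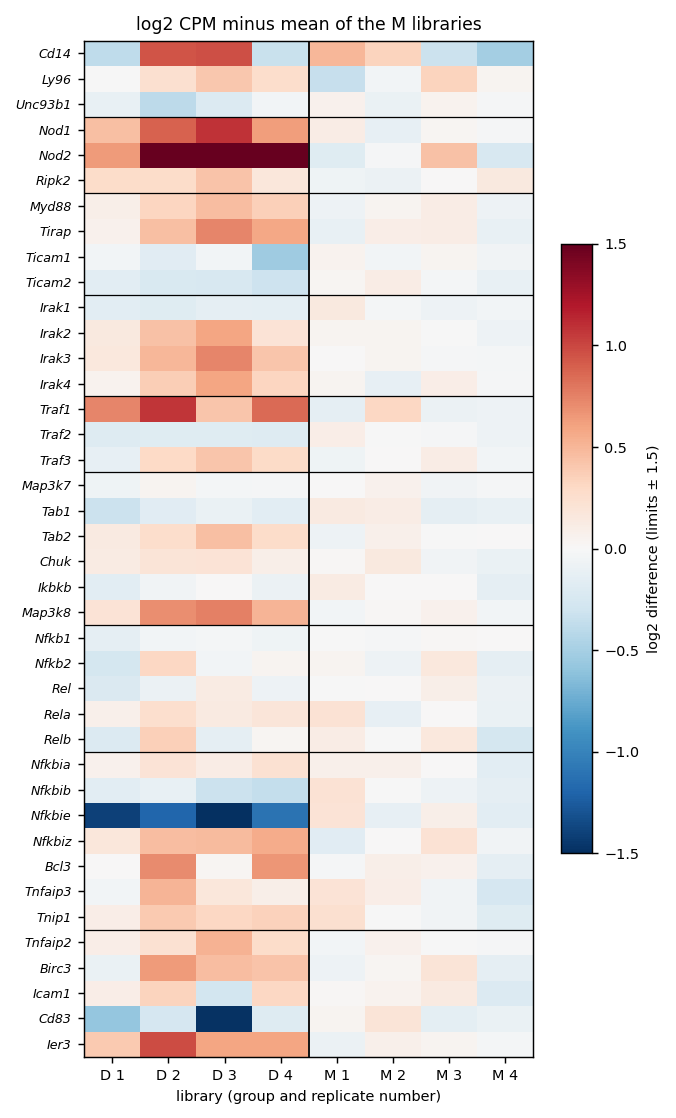
Log2 CPM of each member in each library minus the mean over the M libraries, D replicates on the left and M replicates on the right, with role groups divided by lines. Colours stop at 1.5 above and below 0, which Nod2 exceeds in D replicates 2 to 4 and Nfkbie in D replicate 3. D replicate 1 is paler than D replicate 3 for most genes that are higher in D.

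Other signalling genes of the pathway were read from a list of 34, of which 32 were tested. Called members were 8 higher and 7 lower, 46.9% in all, beside 34.7% of all genes tested (17.4% higher and 17.3% lower), with a median log2 fold change of 0.04. Ikbkg (NEMO), the regulatory subunit that IKK needs for the classical pathway, was lower, with 103 ± 8.34 CPM in the D libraries and 164 ± 11.6 CPM in the M libraries and a log2 fold change of -0.68 ± 0.08 (adjusted p = 0.000196). So were Otulin, a deubiquitinase of linear chains, at -0.47 ± 0.07, Traf5, a TRAF of lymphocyte receptors, at -0.74 ± 0.11, and Pik3ap1 (BCAP), an adaptor prominent in B cells, at -0.57 ± 0.09 (adjusted p = 0.000738, 0.000933 and 0.00138). The higher genes with the lowest p were N4bp1, a restraint on NF-kB, at 0.57 ± 0.11, Azi2, an adaptor of the kinase TBK1, at 0.38 ± 0.08, the ligase Peli2 at 0.49 ± 0.11 and Rnf31 (HOIP), which makes linear ubiquitin chains, at 0.30 ± 0.07 (adjusted p = 0.00372, 0.00461, 0.00583 and 0.00733). Exons of Ikbkg and Rnf31 overlap those of G6pdx and Irf9 over 5.15% and 2.15% of their length, and those of Peli2 and Traf5 overlap other genes over 9.56% and 5.91%. With the most abundant transcript model alone Ikbkg, Azi2 and Rnf31 were not called (adjusted p = 0.0512, 0.0749 and 0.0565). B-cell and dendritic cell markers moved in the same direction as the lower genes, and their part was not tested.

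A second list held 32 genes that NF-kB induces in myeloid cells, of which 26 were tested. Of these, 12 were higher and 3 lower, 57.7% in all, beside the same 34.7% of all genes tested (17.4% higher and 17.3% lower), with a median log2 fold change of 0.43. The 6 not tested for too few counts were Il10, Cxcl1, Nos2, Ptx3, Csf2 and Csf3. Ccl5, a chemokine of T cells and monocytes, averaged 15.4 ± 3.00 CPM in the D libraries and 6.06 ± 1.19 CPM in the M libraries (1.35 ± 0.18, adjusted p = 0.000404). The monocyte chemokine Ccl2 averaged 104 ± 30.6 CPM in the D libraries and 35.5 ± 9.82 CPM in the M libraries (1.54 ± 0.26, adjusted p = 0.00303), and the lectin receptor Clec4e (Mincle) 295 ± 74.5 CPM in the D libraries and 149 ± 20.1 CPM in the M libraries (0.98 ± 0.18, adjusted p = 0.00338). Cxcl10, an interferon-inducible chemokine, averaged 4.597 ± 2.38 CPM in the D libraries and 1.27 ± 0.220 CPM in the M libraries (1.85 ± 0.34, adjusted p = 0.00261). The 3 lower genes were the costimulatory receptor Cd40, at 2.17 ± 0.821 CPM in the D libraries and 5.06 ± 0.623 CPM in the M libraries (-1.22 ± 0.26, adjusted p = 0.00507), the survival gene Bcl2l1, at -0.38 ± 0.10 (adjusted p = 0.0152), and the scarce cytokine Il1a, at -0.82 ± 0.27 (adjusted p = 0.0348). The call of Il1a ended without any 1 of D replicates 1, 2 and 3 and M replicates 1, 2 and 4 (adjusted p = 0.0564 to 0.101). It ended too without both D replicates 1 and 3 (adjusted p = 0.226). With the most abundant transcript model alone Cd40 and Il1a were not called (adjusted p = 0.174 and 0.0917). The count of higher genes was 7 without D replicate 2 and 7 without M replicate 4. Neutrophil and macrophage markers were higher in the same D libraries, with the sums given above, that of macrophages being mostly Lyz2. Tested markers of T or NK cells (5 of 8) and of basophils or mast cells (7 of 8) were higher too. B-cell (10 of 12) and dendritic cell markers (6 of 8) were lower. The part of these cell types was not tested.

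**Figure D5:**
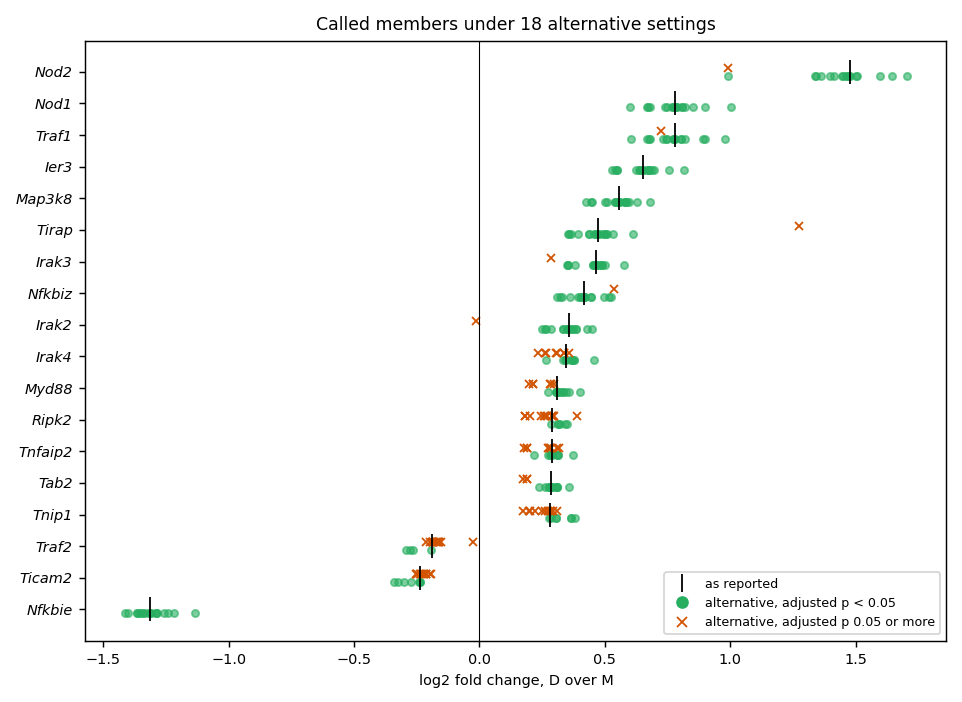
Log2 fold change, D over M, of the 18 called members as reported (bar) and under 18 alternatives, as circles where the adjusted p was under 0.05 and crosses where it was not. Nod1, Map3k8, Ier3 and Nfkbie have circles only, and most crosses lie at members with reported changes under 0.5. The lone cross of Irak2 left of 0 is the fit of its most abundant transcript model alone.

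Nod1, Map3k8, Ier3 and Nfkbie were called in all 18 alternatives, and the log2 fold changes ranged over 0.60 to 1.00 for Nod1, 0.42 to 0.68 for Map3k8 and 0.53 to 0.82 for Ier3. Nod2, Traf1, Tirap, Irak3, Irak2 and Nfkbiz lost the call in 1 alternative only, that of the most abundant transcript model. The same alternative was among those that ended the calls of Myd88, Ticam2, Irak4, Ripk2, Tnfaip2, Tnip1 and Traf2 (adjusted p = 0.0631 to 0.962). Myd88 and Ticam2 have only 1 transcript model.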

How the data were processed

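Per the labels' design text, the authors filtered reads with SOAPnuke 1.5.6 and used HISTA2 2.1.0 (so spelled) for alignment to mm10. How counts were made, from which annotation and with what strand setting was not given in the sources used here. Estimated counts were deposited for each RefSeq transcript, per the file headers, not normalized and mostly not whole. The deposited TPM, scaled by the authors to transcript length and library, was used for levels between genes and in alternatives. The authors' FPKM, their normalized count signal and 8 columns of group means were deposited too and not used. Counts of 60072 transcripts were summed per gene, rounded and matched by NCBI gene ID to symbols in the RefSeq table of GRCm38 (17836 of 17890 genes). Genes were filtered with edgeR's filterByExpr (minimum count 10, minimum total 15) and tested with the quasi-likelihood test of edgeR 4.0.16 in R 4.3.3, with TMM factors, robust estimation and group as the only term, with Benjamini-Hochberg adjustment over all 12839 genes. The SE is the log2 fold change divided by the square root of F. CPM values use TMM-scaled totals. No pair of replicates was as alike as sampling alone would make it (chi-square of 6.49 to 67.0 per gene). The scripts were tested on simulated data. Per-library values are given for up to 3 called members of each role and for Myd88, Rela, Nfkbia and Tnfaip3. Cd14, Irak1, Bcl3, Birc3 and Cd83 were added after their values were seen. From each list of 34 and 32 further genes, the up to 4 called with the lowest p in each direction are named. Members, lists and rules were chosen with earlier results of these data known.

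Replicates are numbered 1 to 4 in each group. D and M libraries with the same number deviated together from their group means (correlations of 0.115, 0.131, 0.119 and 0.182), while other pairs were at -0.178 to 0.0735. These correlations were weak, and the labels give the numbers no meaning. The reported calls do not use the numbers, and a replicate block was fitted as an alternative only. Further alternatives were DESeq2 1.42.0 (size factors, and its test), library totals, other filters, the most abundant transcript model, limma 3.58.1 on log2(TPM + 1) and log2(TPM + 0.1) for genes with a mean TPM of at least 1, and each library left out.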

Additional observations from a re-analysis of the deposited data

Results flagged for a closer look

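In 80 groups of 4 libraries (40 members in D and in M), 1 held a library that stood far from its 3 fellows. Traf1 was at 8.14 CPM in M replicate 2 and at 5.96 to 6.22 CPM in the other M libraries, a gap of 0.880 of the group's range. About 1 group in 20 is picked out in this way by chance, which would be 4 of 80.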

How the results depend on the processing

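Of 720 comparisons of a member with its value under an alternative (40 members, 18 alternatives), 589 kept direction and side of the threshold, 79 kept direction but lost a call, 31 gained one and 21 turned sign. One of the 21, Irak2 with the most abundant transcript model, lost its call as well. Direction was kept throughout by 33 members. With library totals 9 members were higher and 9 lower (over all genes 3346 lower). With TPM 9 were higher and 8 (pseudocount 1) or 7 (pseudocount 0.1) lower, and over all genes 1460 and 1456 were higher. With the most abundant transcript model alone 4 were higher and 1 lower, and over all genes 1088 and 964. With DESeq2's size factors, its test or no filter 1 was lower. Leaving out 1 library gave 11 to 19 members higher and 1 to 2 lower; the count lower was 1 when the library was any but D replicate 1 and M replicate 4. Over all genes it gave 1710 to 2865 higher and 1583 to 2504 lower. With the replicate block 14 members were higher and 4 lower, with Ripk2, Tnip1 and Traf2 losing and Birc3, Cd83 and Nfkbib gaining a call, and no other member changed its call.

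Signs turned in 7 members, and no value that turned was called. With the most abundant model, Chuk was at -0.21, Ikbkb at 0.00845, Irak2 at -0.0147, Nfkb2 at -0.0796 and Relb at -0.15. Map3k7 was at 0.00217 and 0.00211 with DESeq2's size factors and test, at 0.0302 without D replicates 1 and 3, and at -0.0413 to 0.0182 with 1 library left out. Rel was at -0.11 to 0.0141 with 1 library left out. Nfkb2 was at -0.0825 with library totals, -0.11 and -0.11 with TPM and -0.0860 to 0.13 with 1 library left out. Relb was at -0.0845, -0.0877 and -0.0916 and -0.11 to 0.11. The cause was not tested, except that the most abundant model holds only part of the counts of a gene with several. Counts were at most 240 a library for Nod2 and 200 for Ly96, with SEs of 0.26 and 0.15. The part of low counts in these SEs was not tested.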
